A study of Homo sapiens with 9 samples.

Results

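The genes described here are 10 of the 35876 gene symbols measured in HEK293 cells, a human embryonic kidney cell line: the cytoplasmic actins ACTB and ACTG1 and 8 genes for proteins that bind actin or move along it (PFN1, TMSB4X, TMSB10, CFL1, ARPC2, CAPZB, TPM3 and MYL6). They were taken by name, and the list was drawn up knowing that the share of counts held by ACTB differs strongly among the libraries. The values of ACTB are therefore a description and carry no test. All 10 genes passed the filter on low counts.

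RNA was sequenced from 9 samples in 3 groups of 3 replicates. The Cas9 group has the genotype CC_Cas9, the Cre group CC_Cas9_Cre and the Flpo group CC_Cas9_Flpo, so that Cas9, an RNA-guided DNA nuclease, and the element written CC, which the labels do not explain, were common to all 9. Cre and Flpo are site-specific recombinases. The labels do not say whether replicates came from separate cultures or clones, so p-values measure only the spread between these libraries, which may be technical.

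Actin monomers assemble into filaments that shape the cell, carry its contacts and drive its movement, and ACTB and ACTG1 encode the 2 isoforms found in nearly all cell types. Profilin and the thymosins bind the monomers, cofilin severs old filaments, the Arp2/3 complex starts new branches, capping protein blocks the fast-growing end, and tropomyosin and myosin act along the filament. Transcription of several of these genes is controlled by the serum response factor SRF, whose cofactors are held back by free actin monomers and which binds a DNA element called the CArG box.

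Promoter sequence was found in the RefSeq table (GRCh38.p14) for 9 of the 10 genes; ACTB had no entry. The 250 bases before the transcription start are given for ACTG1, whose level ranged most among these 9, and for PFN1, CFL1 and TPM3, the genes that passed the test between the Cre and Flpo groups. For TPM3, which has more than 1 listed start, the start farthest upstream was used. Capitals mark matches on either strand to the CArG box or to CCAAT, and these matches do not overlap each other.
ACTG1 (chr17:81512800-81513049, minus strand): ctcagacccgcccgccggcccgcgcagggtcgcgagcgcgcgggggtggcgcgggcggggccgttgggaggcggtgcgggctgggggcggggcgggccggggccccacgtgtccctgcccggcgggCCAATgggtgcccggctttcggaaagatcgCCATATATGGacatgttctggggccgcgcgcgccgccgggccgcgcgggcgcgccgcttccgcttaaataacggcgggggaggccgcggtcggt
PFN1 (chr17:4948531-4948780, minus strand): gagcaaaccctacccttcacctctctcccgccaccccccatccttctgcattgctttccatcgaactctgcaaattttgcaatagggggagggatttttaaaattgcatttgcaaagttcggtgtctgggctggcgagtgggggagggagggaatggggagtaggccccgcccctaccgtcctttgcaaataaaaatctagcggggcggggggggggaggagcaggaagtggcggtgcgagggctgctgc
CFL1 (chr11:65858181-65858430, minus strand): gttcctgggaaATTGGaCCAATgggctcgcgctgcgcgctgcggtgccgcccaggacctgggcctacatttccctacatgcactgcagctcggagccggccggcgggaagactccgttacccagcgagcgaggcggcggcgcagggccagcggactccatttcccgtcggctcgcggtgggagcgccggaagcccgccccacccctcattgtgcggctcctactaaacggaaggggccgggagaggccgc
TPM3 (chr1:154183219-154183468, minus strand): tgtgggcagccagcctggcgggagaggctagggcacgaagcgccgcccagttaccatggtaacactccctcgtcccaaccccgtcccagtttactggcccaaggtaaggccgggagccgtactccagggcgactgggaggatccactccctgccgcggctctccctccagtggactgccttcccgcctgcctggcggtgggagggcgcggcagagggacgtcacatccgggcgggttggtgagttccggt
The CArG box was found before 1 of these 9 genes, ACTG1, where it begins 94 bases before the start, and in 1.16% of 35116 promoters of the same length. CCAAT was found before 4 of the 9 genes and in 32.0% of all promoters, and TATAAA before none of the 9 and in 10.7% of all. These are matches of letters in a fixed window and not measurements of binding.

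The smallest library, Cre replicate 2, held 213907 estimated counts and the largest, Flpo replicate 1, held 8833491. Every Flpo library was larger than every Cas9 and Cre library, so that depth and the Flpo genotype cannot be told apart. The symbol AC010970.1 alone held between 0.591% and 21.9% of a library. The HEK293 label was checked against KRT8, KRT18 and VIM, which had counts in all 9 libraries, while PAX2 had a single count in 1 library. Hepatocyte markers were checked because the extraction text mentions liver, and they summed to at most 4.67 CPM (counts scaled to a common library total) in any library, with FGB at 0 in all 9. Values below are CPM scaled with edgeR's TMM factors (trimmed mean of M-values), called scaled CPM, unless a share of all counts is named. In bulk RNA, fewer cells of a type and less RNA per cell cannot be told apart.

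The cytoplasmic actins were many times higher in 2 of the 3 Flpo libraries than in any other library. ACTB (chromosome 7, 5527147 to 5563784, minus strand, GENCODE release 29 on GRCh38) stood at 1057, 629 and 1366 scaled CPM in the 3 Cas9 libraries, 867, 4174 and 1245 with Cre and 56576, 4078 and 47327 with Flpo, in each case in the order of replicates 1, 2 and 3, which all lists of 3 values below follow. Flpo replicates 1 and 3 were the highest, and Flpo replicate 2 lay just below Cre replicate 2, so the Cre and Flpo groups overlapped while every Flpo library was above every Cas9 library. As a share of all counts, ACTB held 3.71% of Flpo replicate 1 (Wilson 95% interval 3.70% to 3.72%), 0.320% of Flpo replicate 2 (0.315% to 0.325%) and 0.523% of Cre replicate 2 (0.493% to 0.554%). Flpo replicate 1 was 13.9 times Flpo replicate 2, while the median of that ratio over 1849 genes with a mean of at least 100 scaled CPM was 1.11. The sum of the 9 HEK293 and epithelial markers was high in the same libraries. It was 3534 and 3601 CPM of all counts in Flpo replicates 1 and 3 and 1254 in Flpo replicate 2. The other libraries had 719 to 1395. KRT8 and KRT18 supplied most of it, with 2132 and 1034 CPM in Flpo replicate 1 and 2238 and 1055 in Flpo replicate 3. VIM and NEFL were not highest there. VIM stood at 334 and 270 CPM in Flpo replicates 1 and 3 and at 1117 in Cre replicate 2. NEFL stood at 7.58 and 12.0, below every Cas9 and Cre library (16.5 CPM or more). The part of these markers in the ACTB difference was not tested.

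ACTG1 (chromosome 17, 81509971 to 81523847, minus strand) stood at 2357, 1059 and 2153 scaled CPM in the 3 Cas9 libraries, 1450, 14035 and 3254 with Cre and 60180, 4654 and 50932 with Flpo. The order of the libraries was close to that of ACTB, again with Flpo replicates 1 and 3 at the top and Cre replicate 2 above Flpo replicate 2. The fitted difference between Flpo and Cas9 was 4.38 on the log2 scale (standard error 1.5), with an edgeR adjusted p of 0.136. It was 1.75 (standard error 1.34) for Cre against Cas9 and -2.63 (standard error 1.38) for Cre against Flpo, with edgeR adjusted p of 0.633 and 0.169. The spread within the Flpo group, 38588 ± 29750 scaled CPM (SD, n = 3), and inside the Cre group, 6246 ± 6805 (SD, n = 3), was of the size of the group means. Without Flpo replicate 2 the edgeR adjusted p for Flpo against Cas9 was 0.0310, in a fit where 21.3% of 12595 genes passed. With any other single library left out it ran from 0.109 (without Cre replicate 1) to 0.427 (without Cas9 replicate 2).

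**Figure D1:**
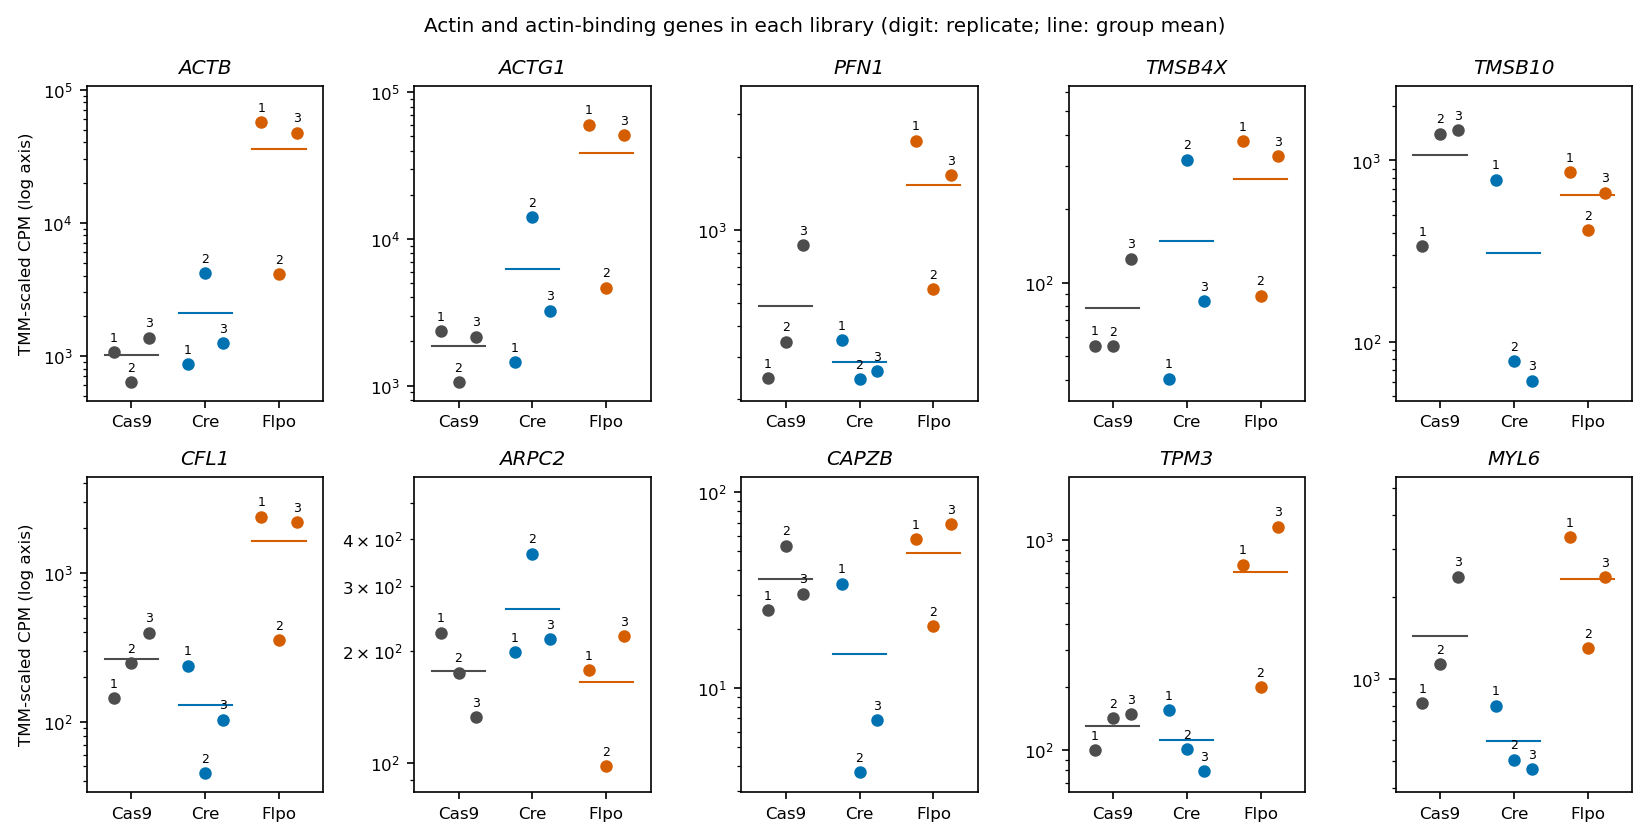
Each panel plots 1 gene, with TMM-scaled CPM on a log axis against the group, 1 point per library labelled with its replicate number and a line at the group mean. Flpo replicates 1 and 3 are the 2 highest libraries for 7 of the 10 genes. Flpo replicate 2 is the lowest of its group for all 10. Both counts include ACTB, whose spread was known beforehand. The shares of all genes with these patterns were not counted, so the counts are a description.

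The balance of the 2 cytoplasmic actins differed between libraries too. ACTG1 had 1.06, 1.14 and 1.08 times the counts of ACTB in the Flpo libraries, 2.23, 1.68 and 1.58 times with Cas9 alone and 1.67, 3.36 and 2.61 times with Cre. These are ratios of counts, not adjusted for length. The 3 Flpo libraries had the lowest ratios of the 9 and Cre replicate 2 the highest. Transcripts of these genes are partly alike: 28.3% of the 31-base words of the ACTB transcript and 17.6% of those of ACTG1 occur in transcripts of other genes. For transcripts of other actin genes alone the shares were 6.77% and 5.39%, so the division of reads between actins is an estimate.

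The muscle actins form the rest of the family: ACTA2 and ACTG2 of smooth muscle, ACTA1 of skeletal muscle and ACTC1 of the heart. They held a larger share of the actin counts in every Cas9 and Cre library than in any Flpo library. Their share of the counts of the 6 actin genes was 60.8%, 41.9% and 29.7% in the Cas9 libraries, 53.5%, 63.6% and 62.6% with Cre and 1.89%, 14.2% and 1.74% with Flpo. The 3 libraries with the highest muscle share, Cre replicates 2 and 3 and Cas9 replicate 1, were also the 3 with the most ACTG1 per ACTB.

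ACTA2 stood at 2614, 607 and 724 scaled CPM in the 3 Cas9 libraries, 1324, 15651 and 3659 with Cre and 1308, 765 and 1066 with Flpo. Cre replicate 2 stood apart, where ACTA2 made up 1.96% of all counts (Wilson 95% interval 1.90% to 2.02%). In unscaled counts ACTA2 ran from 1057 to 7579, a 7.17-fold range, while the library totals spanned 41.3-fold and the counts of ACTB 298.9-fold. ACTA2 had 1.06 to 1.13 times the counts of ACTG2 in each of the Cas9 and Cre libraries, and 1.80, 1.29 and 2.10 times in Flpo replicates 1, 2 and 3.

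Marker lists of other cell types differed between the same libraries. The 5 muscle markers other than the actin ACTA1 (DES, MYH11, TNNT2, MYH3 and CKM) summed to 57.8 to 311 CPM of all counts in the Cas9 libraries, 206 to 543 in the Cre libraries and 18.3 to 74.8 in the Flpo libraries, with 4 or 5 of the 5 detected in each. With ACTA1, which supplied 1957 of the 2500 CPM of Cre replicate 2, the sums were 126 to 640, 362 to 2500 and 91.7 to 129. CKM, the creatine kinase of muscle, went the other way, with 0 counts in all 3 Cre libraries and 35, 0 and 23 in the Flpo libraries. The 5 fibroblast markers summed to 212 to 914, 537 to 7034 and 152 to 186 CPM in the Cas9, Cre and Flpo libraries, with at least 4 detected in each. The collagen genes COL1A1 and COL1A2 supplied 2041 and 4918 of the 7034 CPM of Cre replicate 2. DCN and LUM rest on 12.0 and 4 counts there. PDGFRA had 1, 0 and 0 counts in the Cre libraries and 3, 20 and 4 in the Flpo libraries.

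The sums of the leukocyte and endothelial lists also differed, but they rest on few detected genes. The 5 leukocyte markers summed to 69.2 to 305 CPM in the Cas9 libraries, 151 to 322 with Cre and 24.4 to 131 with Flpo, with 1 to 4 detected. The 4 endothelial markers summed to 1.90 to 18.9, 9.91 to 25.5 and 0.329 to 15.3 CPM, with 1 to 4 detected. Cre replicate 2 was the highest for the muscle, fibroblast and endothelial lists and Cre replicate 3 for the leukocyte list. The endothelial sum of Cre replicate 2 and the leukocyte sum of Cre replicate 3 each came from 1 detected gene. In Cre replicate 2 a gene with 3 counts stands at 14.0 CPM, so its endothelial sum of 25.5 CPM is near the floor. Cre replicate 2 held 1052 counts of the collagen gene COL1A2, more than the 1039 of Flpo replicate 1, a library of 41.3 times its size. The part of these markers in the actin differences was not tested.

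**Figure D2:**
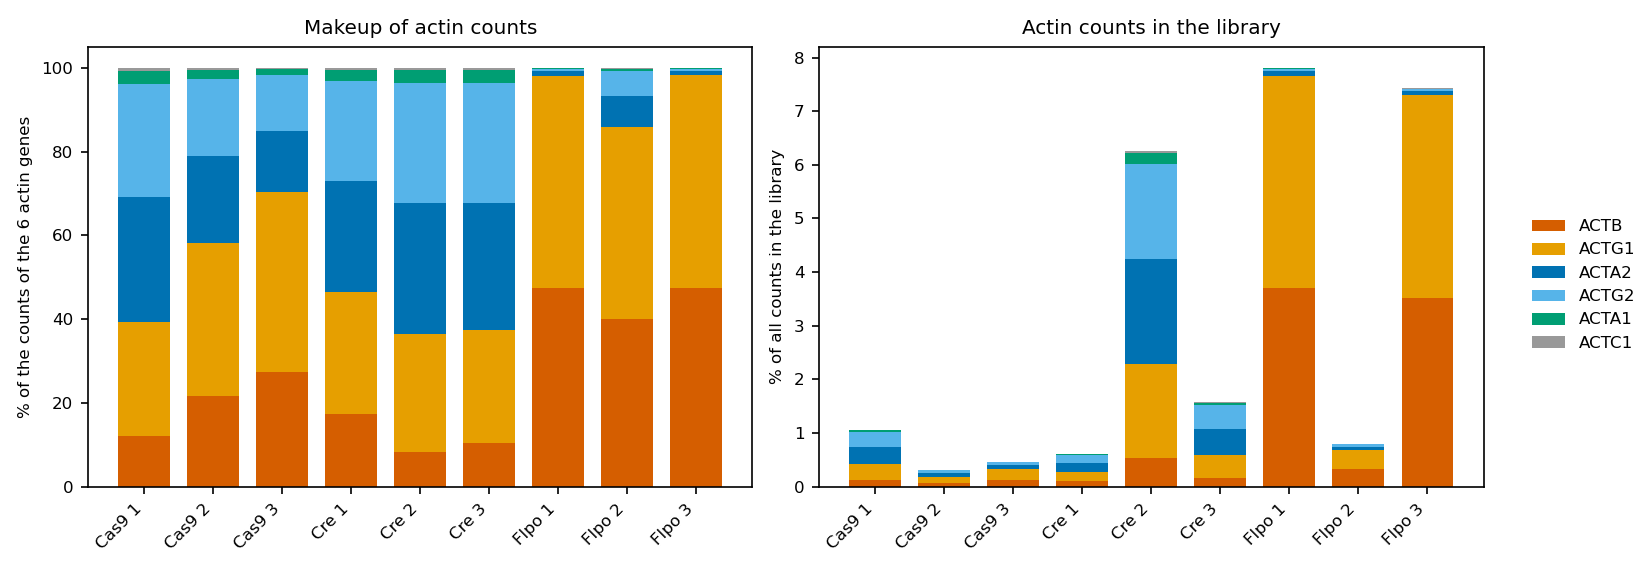
Stacked bars per library show the 6 actin genes as percent of their own summed counts (left) and as percent of all counts in the library (right). The muscle actins take 63.6% of actin counts in Cre replicate 2 and 1.74% in Flpo replicate 3.

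Among the genes for monomer-binding proteins, PFN1 was lower with Cre than with Flpo. PFN1 (profilin 1, which loads monomers onto growing ends; chromosome 17, 4945652 to 4949061, minus strand) stood at 244, 346 and 864 scaled CPM in the 3 Cas9 libraries, 350, 243 and 261 with Cre and 2327, 569 and 1676 with Flpo. Every Cre library was below every Flpo library, and Flpo replicate 2 lay within the range of the Cas9 libraries. The log2 difference of Cre against Flpo was -2.42 (standard error 0.74), with an edgeR adjusted p of 0.0371. Without TMM factors it was -1.59 with an edgeR adjusted p of 0.0902. Flpo against Cas9 had a log2 difference of 1.65 (standard error 0.72, edgeR adjusted p = 0.219) and Cre against Cas9 one of -0.77 (standard error 0.70, edgeR adjusted p = 0.676).

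The 2 thymosins, small peptides that hold monomers in reserve, ordered the libraries differently. TMSB4X stood at 55.2, 55.1 and 125 scaled CPM in the 3 Cas9 libraries, 40.5, 317 and 84.0 with Cre and 378, 88.4 and 327 with Flpo. TMSB10 stood at 336, 1404 and 1464 in the 3 Cas9 libraries, 782, 78.4 and 60.9 with Cre and 860, 413 and 666 with Flpo. TMSB4X lies on chromosome X (12975108 to 12977227, plus strand) and TMSB10 on chromosome 2 (84905625 to 84906675, plus strand). For TMSB4X, Cre replicate 2 was close to Flpo replicates 1 and 3. For TMSB10 it was among the 2 lowest libraries, on 21 counts.

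With all 9 libraries neither thymosin passed in any comparison in edgeR, and the groups overlapped in each. Without Cre replicate 1, TMSB10 passed for Cre against Flpo at -3.24 (edgeR adjusted p = 0.0280), and without Flpo replicate 2, TMSB4X passed for Flpo against Cas9 at 2.15 (edgeR adjusted p = 0.0428). The largest difference of TMSB10 was -1.79 on the log2 scale for Cre against Cas9 (standard error 0.95, edgeR adjusted p = 0.619). That of TMSB4X was 1.75 for Flpo against Cas9 (standard error 0.77, edgeR adjusted p = 0.225). TMSB10 had 25.5 times the counts of TMSB4X in Cas9 replicate 2 and 19.3 times in Cre replicate 1, but 0.247 and 0.725 times in Cre replicates 2 and 3. These count ratios are not adjusted for length.

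CFL1 (cofilin 1, which severs filaments; chromosome 11, 65823022 to 65862026, minus strand) showed the widest gap between the recombinase groups of the 9 tested genes. It stood at 144, 246 and 396 scaled CPM in the 3 Cas9 libraries, 237, 44.8 and 103 with Cre and 2385, 353 and 2178 with Flpo. The Cre libraries all lay below the Flpo libraries, and the value of Cre replicate 2 rests on 12 counts. The log2 difference of Cre against Flpo was -3.65 (standard error 0.89), with an edgeR adjusted p of 0.0204. Against Cas9, the Flpo group was higher by 2.64 (standard error 0.85), with an edgeR adjusted p of 0.121.

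ARPC2, a core subunit of the Arp2/3 complex (chromosome 2, 218217094 to 218254356, plus strand), varied least of the 10. It stood at 224, 175 and 133 scaled CPM in the 3 Cas9 libraries, 199, 365 and 215 with Cre and 178, 98.1 and 219 with Flpo. Its highest library, Cre replicate 2, was 3.72 times its lowest, Flpo replicate 2, where the median over 1844 genes of at least 100 scaled CPM detected in every library was 7.42. It was the only gene of the 9 tested with a positive fitted difference for Cre against Flpo, 0.65 on the log2 scale (standard error 0.51, edgeR adjusted p = 0.348). For Flpo against Cas9 the difference was -0.10 (standard error 0.50, edgeR adjusted p = 0.930). The groups overlapped in each comparison.

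CAPZB, the beta subunit of capping protein (chromosome 1, 19338776 to 19485539, minus strand), was the least expressed of the 10 per kilobase of transcript, with a median of 35.3 scaled CPM per kilobase over the 9 libraries. It stood at 24.9, 53.4 and 30.3 scaled CPM in the 3 Cas9 libraries, 34.1, 3.73 and 6.86 with Cre and 57.4, 20.7 and 68.5 with Flpo. Cre replicates 2 and 3 were the lowest, on 1 and 8 counts. A floor of 3 counts was 14.0 CPM in Cre replicate 2, so its level is not resolved at that depth. The log2 difference of Cre against Flpo was -1.54 (standard error 0.73, edgeR adjusted p = 0.130).

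TPM3, a tropomyosin that lies along the filament (chromosome 1, 154155304 to 154194648, minus strand), was also lower with Cre than with Flpo. It stood at 100, 142 and 148 scaled CPM in the 3 Cas9 libraries, 155, 101 and 79.1 with Cre and 763, 199 and 1160 with Flpo. All 3 Flpo libraries were above all 6 others. The log2 difference was -2.66 for Cre against Flpo (standard error 0.67, edgeR adjusted p = 0.0219) and 2.44 for Flpo against Cas9 (standard error 0.66, edgeR adjusted p = 0.0884). Its 8 numbered pseudogenes held between 4.64% and 19.2% of the summed counts of gene and pseudogenes, the largest such share among the 10 genes. With the pseudogene counts of each gene added to it, the log2 difference of TPM3 for Cre against Flpo was -2.80.

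MYL6, the essential light chain of non-muscle myosin (chromosome 12, 56158161 to 56163496, plus strand), stood at 817, 1136 and 2374 scaled CPM in the 3 Cas9 libraries, 799, 508 and 467 with Cre and 3307, 1299 and 2364 with Flpo. The Cre libraries were below all others. The log2 difference of Cre against Flpo was -1.97 (standard error 0.73, edgeR adjusted p = 0.0681), and that of Cre against Cas9 was -1.29 (standard error 0.72, edgeR adjusted p = 0.619).

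Per kilobase of transcript, the order of the genes changed between groups. Group medians in the Cas9 libraries were highest for TMSB10, at 2831 scaled CPM per kilobase, followed by MYL6 at 1261, ACTG1 at 954 and ACTB at 550. In the Flpo libraries ACTB at 24637 and ACTG1 at 22576 came first, followed by MYL6 at 2624 and TMSB10 at 1343. In the Cre libraries ACTG1 came first at 1442, and TMSB10 stood at 158. Within libraries, ACTG1 was above ACTB per kilobase in all 6 Cas9 and Cre libraries and ACTB above ACTG1 in all 3 Flpo libraries. In counts ACTG1 was above ACTB in the Flpo libraries too, at 1.06, 1.14 and 1.08 times. Their order per kilobase there rests on the transcript lengths used, 2256 bases for ACTG1 and 1921 for ACTB. Together the 10 genes held 0.556% to 0.843% of all counts in the Cas9 libraries, 0.593%, 2.49% and 0.755% with Cre and 8.33%, 0.923% and 7.94% with Flpo.

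Cre against Cas9 compares cells that differ in their labels by Cre. None of the 9 tested genes passed an adjusted p of 0.05 in edgeR, where 0% of all 11905 genes passed. None had an unadjusted p under 0.05 in edgeR, against 7.38% of all genes. In DESeq2 none of the 9 passed, where 0.0158% of 25268 genes did. The median log2 difference was -0.77 over the 9 genes and -0.22 over all genes tested. The values of the groups did not overlap for 1 of the 9, MYL6, which was lower with Cre, and for 9.84% of all genes (3.46% higher and 6.38% lower).

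Flpo against Cas9 is the same comparison for Flpo. None of the 9 genes passed in edgeR, where 0.227% of all genes did (0.218% higher and 0.0084% lower), and 5 of the 9 had an unadjusted p under 0.05. The unadjusted share over all genes was 20.0%. In DESeq2, 3 of the 9 passed (ACTG1, CFL1 and TPM3), where 4.36% of 25268 genes did. The groups did not overlap for 2 of the 9, ACTG1 and TPM3, both higher in Flpo, and for 25% of all genes (12.9% higher and 12.2% lower). The median log2 difference was 1.65 over the 9 genes and 0.05 over all genes. Without Flpo replicate 2, 5 of the 9 passed in edgeR, all higher in the Flpo group (ACTG1, PFN1, TMSB4X, CFL1 and TPM3), where 21.3% of 12595 genes did.

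Cre against Flpo compares cells that carry different recombinases. PFN1, CFL1 and TPM3, 3 of the 9, passed in edgeR, all lower in the Cre group, where 20.5% of all genes passed (6.17% higher and 14.3% lower). The groups did not overlap for 4 of the 9 genes (the same 3 and MYL6) and for 43.3% of all genes (15.3% higher and 28% lower). The median log2 difference was -1.97 over the 9 genes and -0.34 over all genes, and the latter was 0.44 without TMM factors, under which CFL1 and TPM3 passed. None of the 9 passed without Flpo replicate 3, where 3.28% of all genes did. None of them passed without Cre replicate 2, Cre replicate 3 or Flpo replicate 1, or with library depth in the model. In these latter fits 0% of all genes passed. Without Cre replicate 2 the log2 differences of PFN1, CFL1 and TPM3 were -2.29, -3.24 and -2.56, with edgeR adjusted p of 0.0942, 0.0630 and 0.0649. Without Flpo replicate 2, 5 of the 9 passed (PFN1, CFL1, CAPZB, TPM3 and MYL6), where 44.1% of all genes did. With Cre replicate 2 and Flpo replicate 2 both left out, 6 of the 9 passed (ACTG1, PFN1, TMSB4X, CFL1, TPM3 and MYL6), where 41.2% of all genes did. Without Cre replicate 1, 4 passed (TMSB10, CFL1, CAPZB and TPM3) and PFN1 did not, where 22.7% of all genes did. In DESeq2, 5 of the 9 passed (ACTG1, PFN1, CFL1, TPM3 and MYL6), where 15.9% of all genes did, with a DESeq2 adjusted p of 0.0261 for ACTG1.

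**Figure D3:**
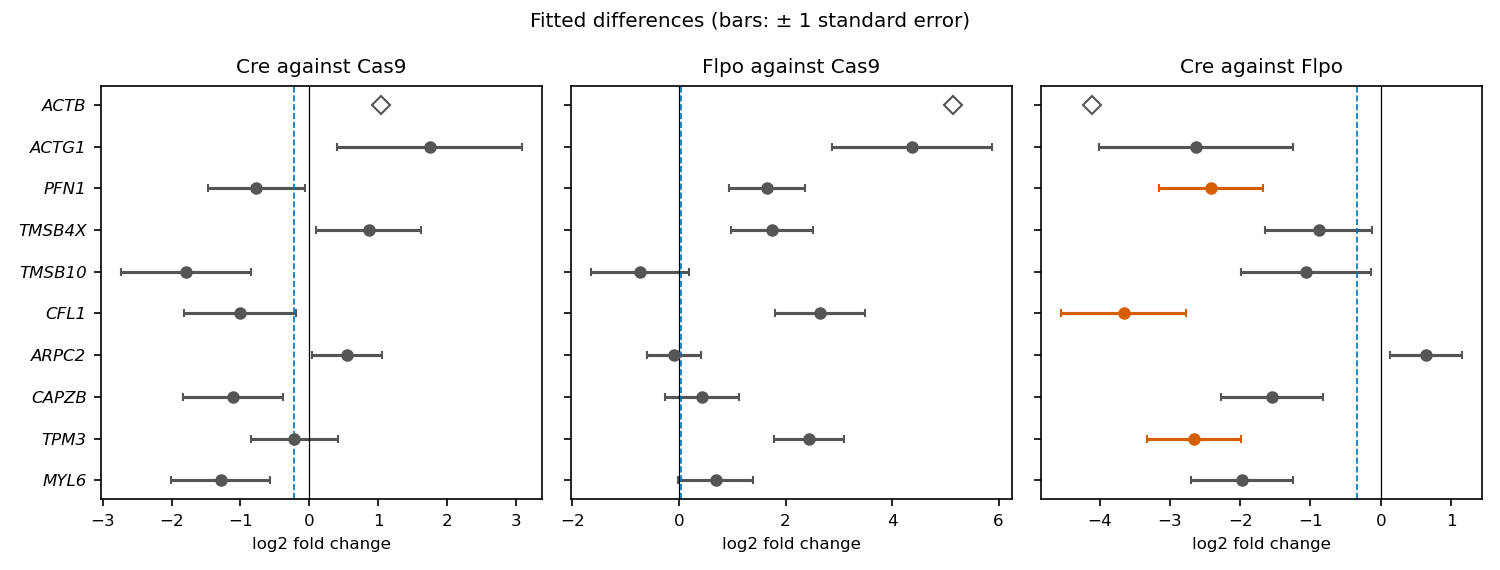
Fitted log2 fold changes of the 10 genes in each comparison, with bars of 1 standard error. Orange points passed an adjusted p of 0.05 in edgeR, the open diamond is ACTB, which carries no test, and the dashed line is the median of all genes tested. PFN1, CFL1 and TPM3 are the orange points, all in Cre against Flpo.

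The wider actin cytoskeleton was described with 105 other genes, of which 98 passed the filter on low counts. None passed in edgeR for Cre against Cas9 or Flpo against Cas9, where 18 and 16 had an unadjusted p under 0.05, against 7.38% and 20.0% of all genes. DESeq2 passed 0 in the former and 7 higher and 1 lower in the latter, where it passed 4.36% of all genes. For Cre against Flpo, 41 had an unadjusted p under 0.05, and 8 passed as higher and 16 as lower in the Cre group. Over all genes 39.8% had an unadjusted p under 0.05 and 20.5% passed, so the counts of the list were near the background. The median was -0.34 over these 98 genes and -0.34 over all genes tested. Without TMM factors 18 were higher and 8 lower, where 24.2% of all genes passed, 70.8% of them higher. The count for the list was 0 without Cre replicate 2, Cre replicate 3 or Flpo replicate 1 and with depth in the model. In those fits 0% of all genes passed. Without Flpo replicate 3 it was 0 higher and 4 lower of 98 tested, where 3.28% of all genes passed. Without Flpo replicate 2 it was 14 higher and 30 lower of 100 tested, where 44.1% of all genes passed.

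By role, the calls for Cre against Flpo were spread over most groups of the list. Of 15 tested genes of monomer binding and filament turnover, 2 were lower (PFN2 and DSTN) and none higher, and of 18 nucleation promoters and formins 3 were lower (CTTN, WASF1 and WASL). Of 9 capping and severing genes, EPS8, GSN and CAPG were higher and CAPZA1 lower. Of 13 non-muscle myosin genes, MYL9 was higher and MYL12B, MYL6B, MYL12A and MYO1C lower, and of 20 crosslinkers and membrane linkers MARCKS was higher and PLS3 and PXN lower. Some of these falls rest on values under the floor of 3 counts. WASF1 had 0 and 2 counts in Cre replicates 2 and 3, WASL had 1 in Cre replicate 2 and PXN had 1 in Cre replicate 3. Of 8 tropomyosins and side binders, TAGLN was higher and TAGLN2 and CNN3 lower.

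The 4 largest falls were of CAPZA1, ARPC3, CTTN and TAGLN2. CAPZA1, a partner of CAPZB in capping protein, had a log2 difference of -4.50 (standard error 0.85, edgeR adjusted p = 0.0167). It stood at 14.8, 11.2 and 1.72 scaled CPM with Cre and 226, 76.2 and 316 with Flpo. Its values in Cre replicates 2 and 3 rest on 3 and 2 counts, at or under the floor, so its level there is not resolved. The difference was -2.36 (edgeR adjusted p = 0.800) with depth in the model. CAPZA2, also a partner of CAPZB, had a log2 difference of -0.15 (edgeR adjusted p = 0.802) in the main fit. ARPC3, a subunit of the Arp2/3 complex with ARPC2, was at 10.2, 29.9 and 10.3 against 393, 58.5 and 379, a log2 difference of -4.22. CTTN (cortactin, which stabilises branches) and TAGLN2 (transgelin 2) had log2 differences of -4.06 and -3.94, each without overlap of the groups. Of the 8 other genes of the Arp2/3 complex, 2 were lower (ARPC3 and ARPC1A) and 6 did not pass.

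The 4 largest rises were of ACTG2, TAGLN, ACTA1 and MYL9. ACTG2, the enteric smooth muscle actin, was at 1187, 14247 and 3438 scaled CPM with Cre and 727, 591 and 508 with Flpo, a log2 difference of 3.37 (standard error 1.06, edgeR adjusted p = 0.0413). TAGLN, a smooth muscle actin binder, was at 80.9, 806 and 193 against 45.6, 30.2 and 32.6, a log2 difference of 3.30 (edgeR adjusted p = 0.0212). ACTA1 and MYL9, a smooth muscle and non-muscle myosin light chain, had log2 differences of 2.74 (edgeR adjusted p = 0.0448) and 2.27 (edgeR adjusted p = 0.0199), and the groups overlapped for ACTA1. In unscaled counts ACTG2 stood at 2436, 3817 and 4007 with Cre and 4214, 2313 and 3182 with Flpo. Those of TAGLN were 166, 216 and 225 with Cre and 264, 118 and 204 with Flpo. Over the 9 libraries the counts of ACTG2 spanned 4.50-fold and the library totals 41.3-fold. With depth in the model the differences of ACTG2, TAGLN and ACTA1 turned negative. ACTA2 was not past the threshold, at 2.72 with an edgeR adjusted p of 0.0772. Without Cre replicate 2 the differences of ACTG2, TAGLN, ACTA1 and MYL9 were 1.95, 1.94, 1.29 and 1.89, with edgeR adjusted p of 0.125, 0.0731, 0.220 and 0.0564.

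**Figure D4:**
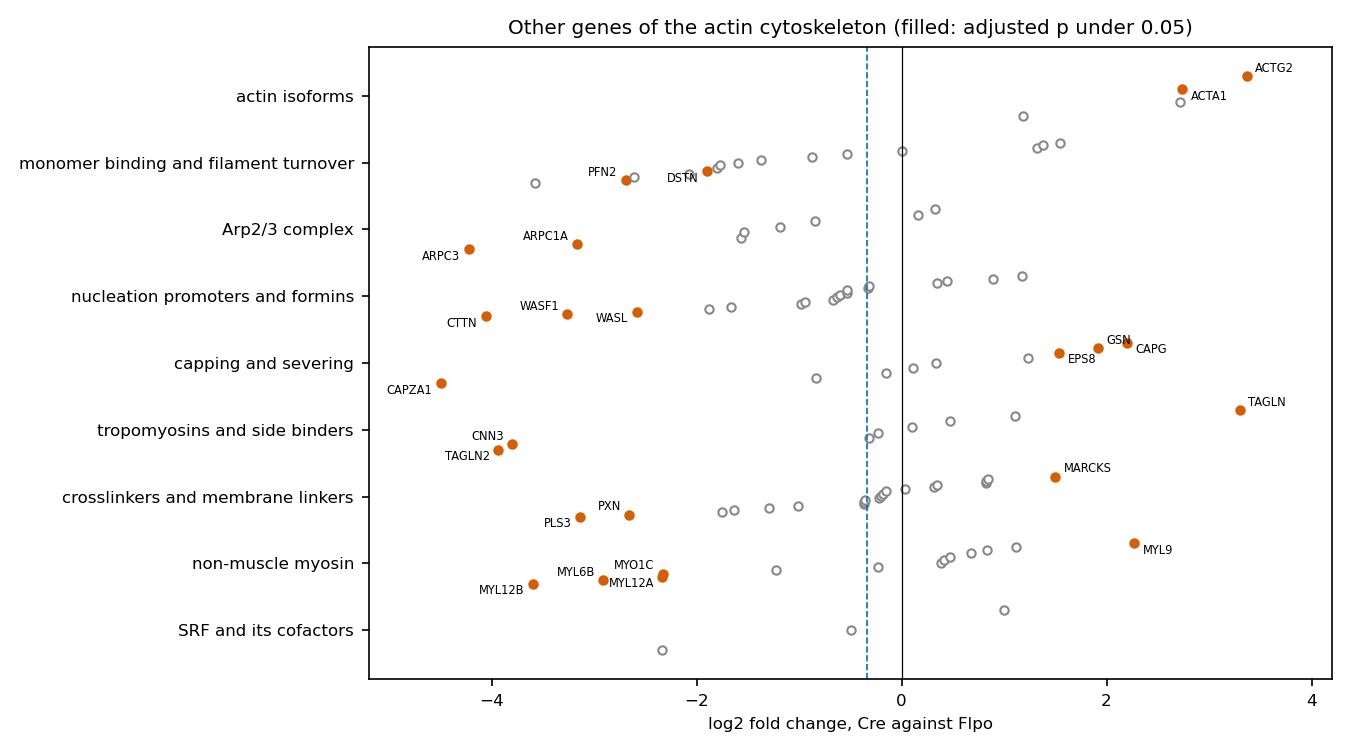
Each point is 1 of the 98 tested genes of the wider list, placed by its log2 fold change for Cre against Flpo and grouped by role. Filled points passed an adjusted p of 0.05 in edgeR, the dashed line is the median of all genes tested, and 16 filled points lie to the left of 0 and 8 to the right.

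SRF itself was at 5.82, 43.0 and 56.8 scaled CPM in the Cas9 libraries, 10.7, 0 and 0.858 with Cre and 25.9, 26.8 and 25.7 with Flpo, and it and its 2 cofactors did not pass in any comparison in edgeR. Its edgeR adjusted p for Cre against Flpo was 0.0820, and its values in Cre replicates 2 and 3, on 0 counts and 1 count, lie under the floor of 3 counts there.

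The genes whose level across the 9 libraries was most like that of ACTB were CALM2 (calmodulin), HSPA1B (an inducible heat shock protein), TUBA4A (an alpha tubulin), MYL12B and MYL12A (regulatory myosin light chains), out of 1848 genes with a mean of at least 100 scaled CPM. The likeness was Pearson's r of log2(scaled CPM + 1), between 0.98 and 0.99 over 9 libraries that differ in depth and makeup, and it is given as a description. CALM2 stood at 1142, 177 and 1218 scaled CPM in Flpo replicates 1, 2 and 3, against 90.8 ± 16.8 in the Cas9 group and 115 ± 57.2 in the Cre group (SD, n = 3 each). ACTG1 came 7th by this measure, TPM3 98th and CFL1 286th, while TMSB10 and ARPC2 had r of 0.07 and 0.06. Outside the actin cytoskeleton the keratin gene KRT8 was high in the same libraries, at 2132, 635 and 2238 CPM of all counts in Flpo replicates 1, 2 and 3 and at most 500 in the others.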

How the data were processed

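RNA sequencing data of 9 HEK293 samples in 3 groups of 3 were used. Per the labels' protocols, RNA was taken up in TRIzol and made into TruSeq libraries. A single table of estimated counts per gene symbol, not normalized, was deposited by the authors. Salmon 0.14.1 and the build hg38 are named in the submitters' processing notes. The annotation, filters and strand setting are not given in the sources used here. Groups came from sample titles.

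Counts were rounded to whole numbers and tested with edgeR 4.0.16 (R 4.3.3): TMM scaling, quasi-likelihood test, all 9 libraries in 1 fit, no covariate, default filter (minimum count 10, minimum total 15; 11905 genes tested), and Benjamini-Hochberg adjustment over all tested genes at a threshold of 0.05. The design had been written for counts, so the rounding was added. Each standard error was obtained from the log2 fold change and its F statistic. Wilson intervals and the floor of 3 counts cover counting error only. Lengths, positions and 31-base words come from GENCODE release 29 (longest top-ranked APPRIS transcript). Alternatives included DESeq2 1.42.0. The code was tested on simulated data. The smallest chi-square per degree of freedom between libraries of a group was 10.8, so no pair agreed within sampling noise.

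The genes and lists were chosen with earlier results of these data known. The rule named all 10 genes, up to 4 rises and 4 falls of the wider list per comparison, and the 5 genes most like ACTB. Other genes were named after their values were seen.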

Additional observations from a re-analysis of the deposited data

How the results depend on the processing

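Of the 3 counts of genes past the threshold, 0 for Cre against Cas9 became 4 with DESeq2 and 51 with no filter on low counts. For Flpo against Cas9, 27 became 12 without TMM factors, 1101 with DESeq2, 1169 with no filter, 6 in libraries thinned to the smallest, 0 with only the compared groups fitted (2807 at an unadjusted p under 0.05), 0 with log2 total count in the model (1791 unadjusted) and 2966 without Cre replicate 2 and Flpo replicate 2. With 1 library left out it ran from 0 (without Cas9 replicate 1 or 2, Cre replicate 2, Flpo replicate 1 or 3) to 2685 (without Flpo replicate 2), with 12 without Cre replicate 3 and 74 without Cas9 replicate 3. For Cre against Flpo, 2440 (20.5% of genes tested) became 4010 with DESeq2 (15.9% of 25268) and 1151 when thinned (24.1% of 4773). The count was 0 with log2 total count in the model (732 unadjusted) and 5141 without Cre replicate 2 and Flpo replicate 2. It ran from 0 (without Cre replicate 2 or 3, or Flpo replicate 1) to 5559 (without Flpo replicate 2) with 1 library left out, with 405 without Flpo replicate 3 and 1386 without Cas9 replicate 2. Of its calls, 30.1% were higher with Cre, or 70.8% without TMM factors. Leaving out both second replicates was chosen after seeing the data. The causes were not tested.

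Directions that turned are log2 differences of genes most of which did not pass. With log2 total count in the model, Cre against Flpo was -0.27 for ARPC2, 0.76 for CAPZB, 1.83 for TMSB10, -1.39 for ACTA1, -0.73 for ACTG2 and -0.36 for TAGLN. Flpo against Cas9 was 0.45 for ARPC2, -1.37 for CAPZB and -0.051 for MYL6, and Cre against Cas9 was 0.026 for CFL1, 0.10 for PFN1, -0.076 for TMSB4X and 0.20 for TPM3. Without TMM factors, CAPZB was -0.13 for Flpo against Cas9 and TPM3 0.032 for Cre against Cas9. Leaving out 1 library, ARPC2 ran from -0.34 to 0.15 for Flpo against Cas9 (0.15 without both second replicates) and TMSB4X from -0.33 to 1.36 for Cre against Cas9 (-0.34 without both).

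Libraries with the same number were compared by how far each gene, as log2(scaled CPM + 1), lay from its group mean. These deviations correlated at -0.34 for Cre and Cas9, -0.10 for Flpo and Cas9 and 0.11 for Cre and Flpo on average. Each comparison had negative pairs, so the numbers were not taken to pair samples. With the replicate block the count was 0 for Cre against Cas9, 6 for the Flpo and Cas9 groups and 1568 for the recombinase groups, and PFN1 had an edgeR adjusted p of 0.0727 for Cre against Flpo.

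Depth limits the Cre group most, where CFL1 and CAPZB rest on 12 counts and 1 count in replicate 2.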
